A study of Rattus norvegicus with 28 samples.

Results

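Primary rat astrocytes stimulated with the HERV-W envelope protein (ENV) were compared with astrocytes given the buffer the protein came in. The comparison took every library labelled as primary rat astrocytes with HERV-W ENV (4 libraries) or with buffer (4 libraries), 8 of the 28 libraries of the series, and all 20268 genes in their tables. In both groups the cells were cortical cells of Wistar rats at postnatal day 1. They were grown in flasks for 10 days in medium with 10% fetal calf serum (FCS), after which microglia were shaken off. Recombinant ENV at 1 µg/ml, or buffer, was added 3 days after the astrocytes had been isolated, again in medium with 10% FCS. Messenger RNA libraries were made from 150 ng of total RNA. The sources used here give neither the length of stimulation, nor the endotoxin content of the protein, nor whether replicates came from separate litters. The p-values therefore cover a spread that may be technical.

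HERV-W is a family of retroviral sequences in the human genome. Its envelope protein is known as an agonist of Toll-like receptor 4 (TLR4), the receptor for bacterial lipopolysaccharide. TLR4 acts with its co-receptors CD14 and LY96 (MD-2) through adaptor proteins that release NF-kB, a family of transcription factors that drives cytokine and chemokine genes and its own inhibitors. It also acts through another branch that leads to type I interferon and the interferon-stimulated genes. Astrocytes are the glial cells that clear glutamate and potassium, carry the intermediate filament proteins GFAP and vimentin, and change their transcripts when exposed to inflammatory signals, a state known as reactive.

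The libraries held 25562407 to 35326938 counts. The floor behind a count of 0, taken as 3 counts, was 0.0812 to 0.115 CPM (counts per 1000000, scaled by TMM normalization). Principal component 1 held 55.3% of the variance and set all 4 ENV libraries (-72.5 to -20.9) apart from all 4 buffer libraries (32.9 to 61.7). ENV replicate 2 was the ENV library nearest to buffer on it, and buffer replicate 4 was the buffer library nearest to ENV. Libraries with the same replicate number deviated together from their group means (correlations of 0.26 to 0.64), so a fit with the replicate number as a block is given where it changed a call. Astrocyte markers summed to 5815, 6685, 8542 and 10019 CPM with ENV and to 10057, 11020, 10876 and 15248 CPM with buffer, with all 12 marker genes detected. Most of the difference between the groups lay in Gfap. Of the 12 markers 5 were called lower and 1, Aqp4, was called higher. Microglia and macrophage markers reached 432, 91.0, 343 and 526 CPM with ENV and 980, 144, 567 and 864 CPM with buffer. Fibroblast and mural cell markers, most of all the contractile gene Tagln, summed to 2126, 3669, 3545 and 1818 CPM with ENV, against 8569, 12342, 11071 and 2908 CPM with buffer. The cultures thus carried astrocyte transcripts together with lower microglial and variable fibroblast or mural transcripts, and every one of these sums was lower with ENV in all 4 replicate numbers. None of these differences reached an adjusted p under 0.05 in a 2-sided exact permutation test, adjusted over 9 marker lists. In that test adjusted p was 0.129 for astrocyte, 0.3 for microglial and 0.257 for fibroblast and mural markers. The smallest unadjusted p it allows is 0.0286, which the astrocyte sums reached, with no overlap between the groups. After adjustment over 9 lists, a list at that minimum cannot pass 0.05 unless most of the lists reach it too. The adjusted test therefore cannot decide whether these sums differ. In bulk RNA, fewer cells of a type and less RNA per cell cannot be told apart.

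**Figure D1:**
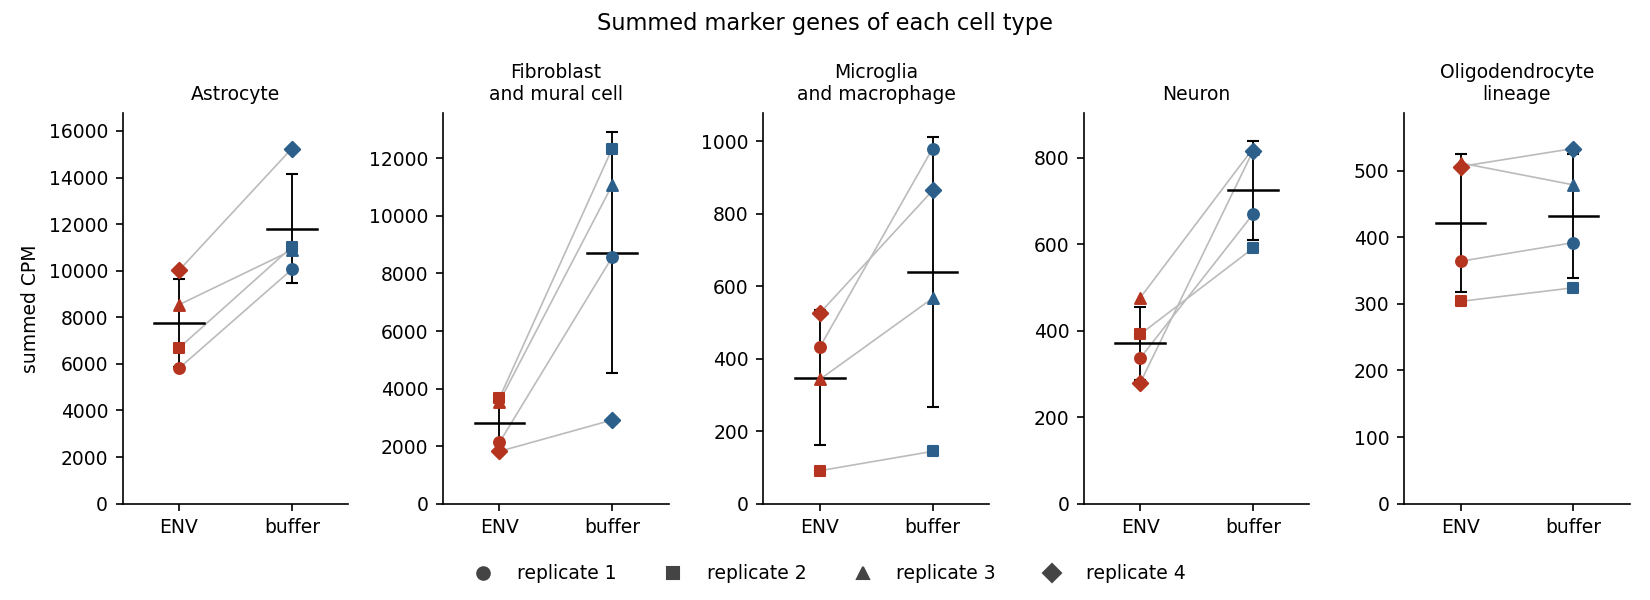
Summed CPM of the marker genes of 5 cell types in the 4 ENV and 4 buffer libraries, with grey lines joining libraries of the same replicate number and black bars for the mean ± SD. Astrocyte markers were at 5815 to 10019 CPM with ENV and 10057 to 15248 CPM with buffer, and buffer replicate 4 had far fewer fibroblast and mural transcripts (2908 CPM) than the other buffer libraries.

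Of 14941 genes tested, 2670 (17.9%) were called at a Benjamini-Hochberg adjusted p under 0.05 by the quasi-likelihood test of edgeR. With ENV, 1422 genes rose (9.52% of those tested) and 1248 fell (8.35%). Log2 changes below are given with a standard error derived from the F statistic of the test. The rises were the larger changes: 100 of the called genes rose and 20 fell by at least 16-fold, while 620 rose and 675 fell by at least 2-fold. The balance of directions depended on the scaling, with 1063 rises and 1491 falls under upper quartile factors. With the replicate number as a block 4348 genes were called (2119 higher and 2229 lower), among them 2639 of the 2670. Leaving out buffer replicate 3, ENV replicate 1 or buffer replicate 1 left 1487, 1690 and 1692 calls. Leaving out both libraries numbered 4 left 2211.

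**Figure D2:**
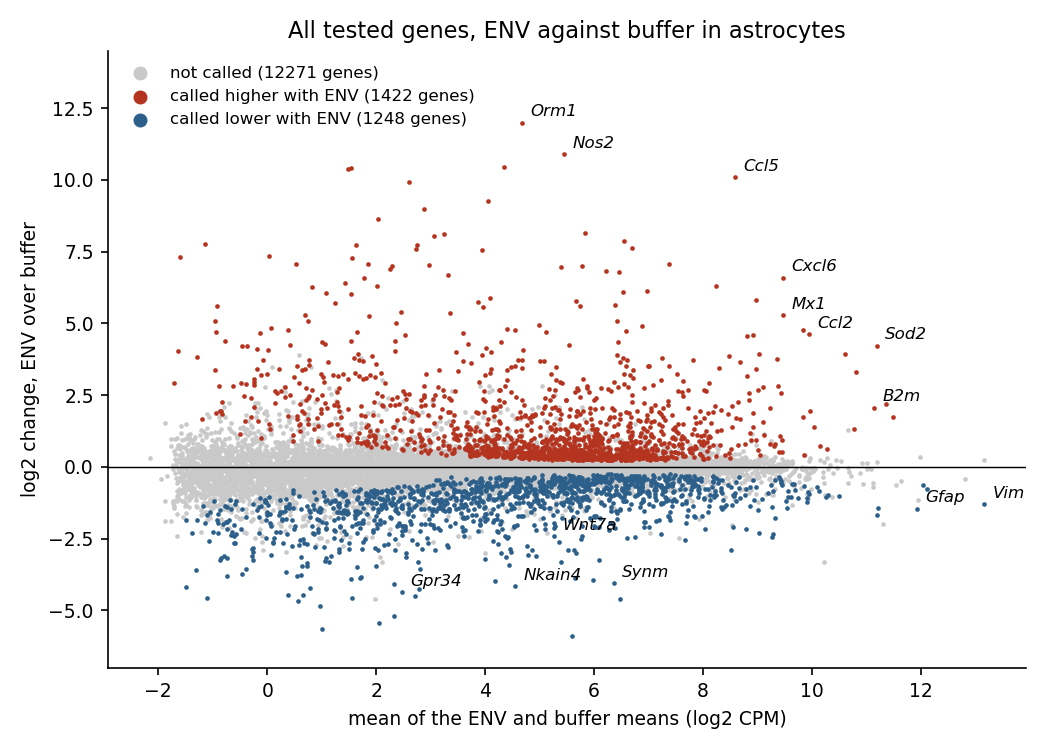
Log2 change of ENV over buffer against mean expression (log2 CPM) for the 14941 tested genes, red for called higher with ENV (1422), blue for called lower (1248) and grey for not called. The rises reach further from 0 than the falls, and Gfap and Vim lie among the most counted genes that fell.

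Genes of 36 lists of related function were counted against these shares of all tested genes. Members under the filter on low counts were not tested, among them 4 of 16 CC chemokines and 2 of 44 interferon-stimulated genes with a row in the files, and a gene near 0 with buffer passed that filter only where its ENV counts were high. The shares and medians of lists with such genes, among them CC chemokines, cytokines and class II genes, are therefore partly set by the filter. Interferon-stimulated genes, MHC class I genes, chemokines and NF-kB feedback genes had the highest shares called higher, and the astrocyte filament and identity genes had the highest share called lower.

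**Figure D3:**
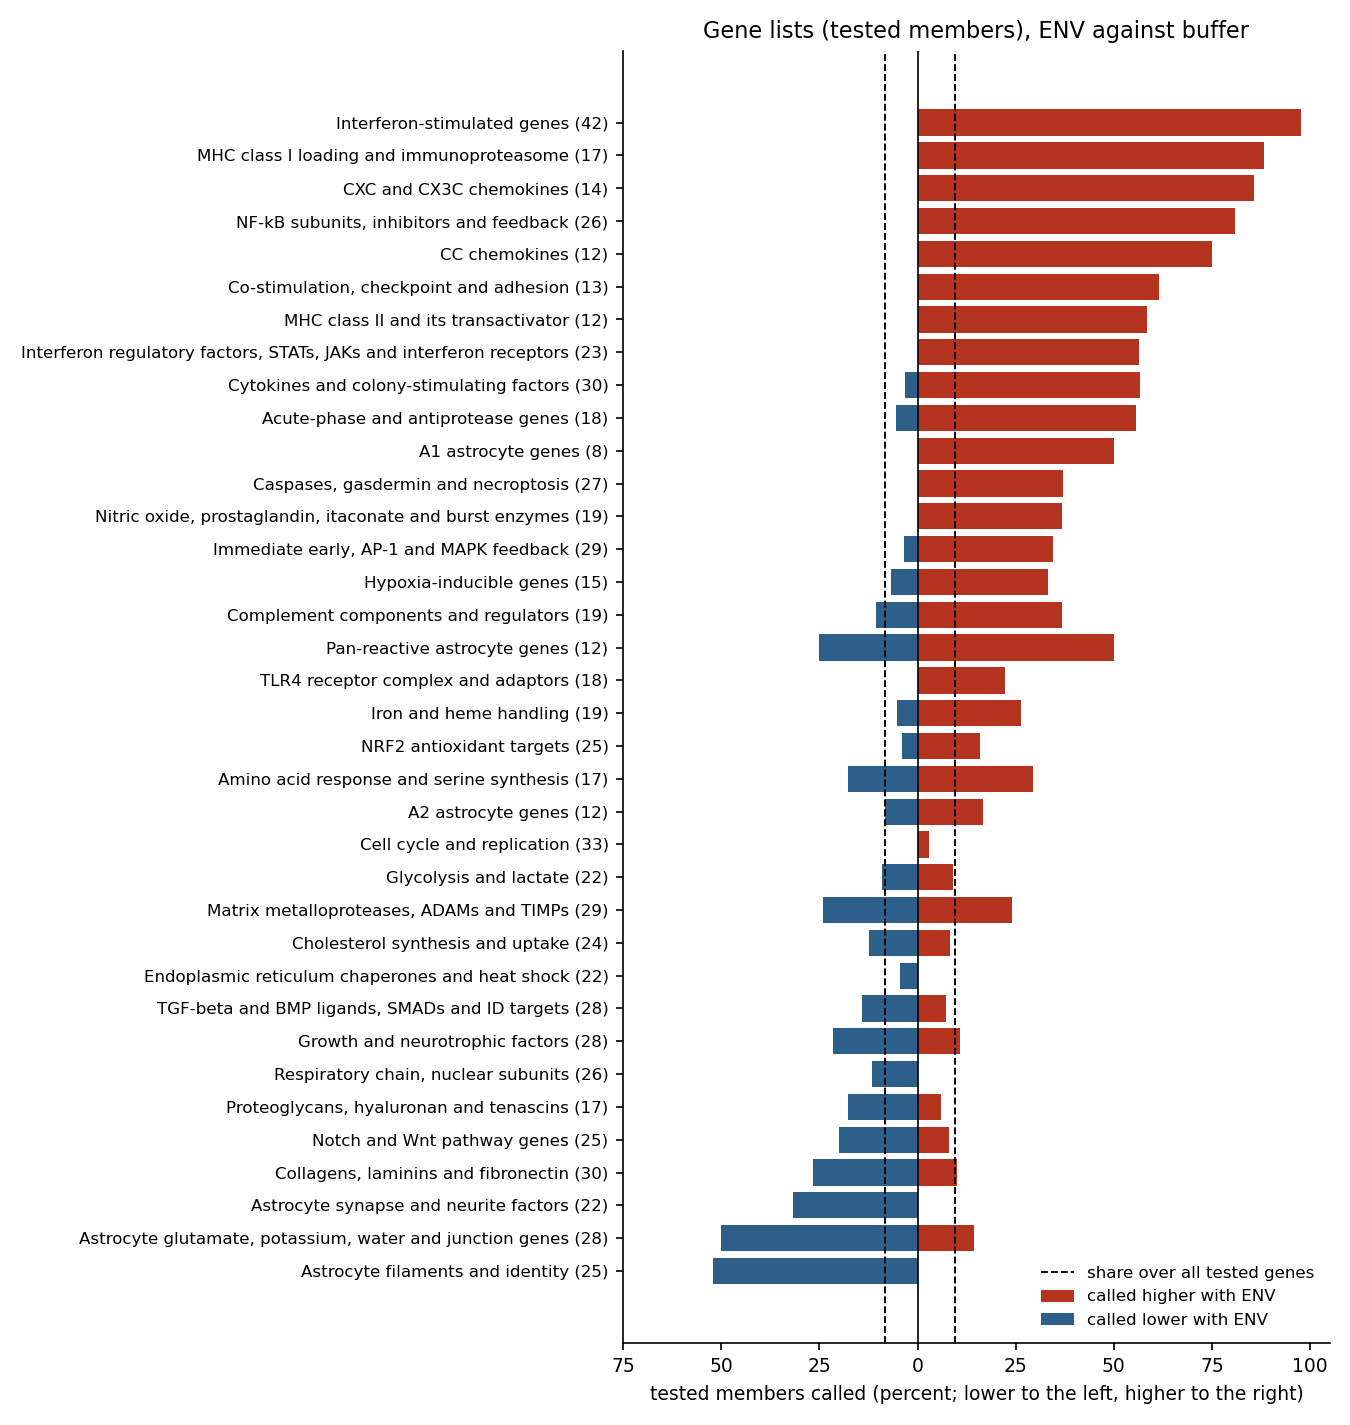
Percent of the tested members of each gene list called higher (red, to the right) or lower (blue, to the left) with ENV, with the number of tested members in brackets. Dashed lines mark the share over all tested genes, 9.52% higher and 8.35% lower.

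Chemokines, the secreted proteins that attract leukocytes, rose almost throughout. Of 12 tested CC chemokines 9 rose and none fell (median log2 change 5.70), and of 14 tested CXC and CX3C chemokines 12 rose and none fell (median 3.99), beside a median of 0.02 over all tested genes. Because CC chemokines near 0 with buffer were tested only where their ENV counts were high, their share and median are partly set by the filter. With DESeq2, fitted without that filter on all 16 CC chemokines in the files, the median was 4.69. Ccl2, the main attractant of monocytes, had 1732, 1038, 2046 and 2777 CPM with ENV and 66.1, 42.4, 37.9 and 160.2 CPM with buffer. Ccl7, another monocyte attractant, had 1676, 1006, 1865 and 2469.5 CPM with ENV and 50.8, 36.8, 34.7 and 133 CPM with buffer. The groups lay far apart in both genes, with a log2 change of 4.63 ± 0.57 for Ccl2 (adjusted p = 0.00187) and 4.78 ± 0.55 for Ccl7 (adjusted p = 0.00140). Together with Sod2, C3, Clu, Gbp2, B2m and Cfb they were the 8 genes that gained most CPM, a gain that is per count and not per gene length. Ccl5, an attractant of T cells, had 851, 355, 983 and 896 CPM with ENV, against 0.411, 0.373, 0.192 and 1.65 CPM with buffer, low but above the floor (log2 change 10.10 ± 0.74, adjusted p = 0.000348). Ccl20, the ligand of CCR6, had 279, 131, 754 and 1215 CPM with ENV and 1.27, 1.34, 1.54 and 25.2 CPM with buffer, and buffer replicate 4 alone carried most of the buffer signal (log2 change 6.32 ± 1.35, adjusted p = 0.0158).

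Several CC chemokines were weakest in ENV replicate 2. Ccl3, which attracts monocytes and T cells, had 199, 24.3, 177 and 192 CPM with ENV and 1.17, 0.448, 1.23 and 2.27 CPM with buffer (log2 change 6.82 ± 0.79, adjusted p = 0.00149). The related Ccl4 had 125, 13.2, 76.2 and 118 CPM with ENV and 1.06, 0.411, 0.384 and 0.758 CPM with buffer (log2 change 6.96 ± 0.79, adjusted p = 0.00138), and the monocyte attractant Ccl12 had 219.9, 24.0, 157 and 266 CPM with ENV and 4.83, 1.42, 3.65 and 9.60 CPM with buffer (log2 change 5.08 ± 0.84, adjusted p = 0.00589). In each of these genes ENV replicate 2 was the lowest ENV library and still above every buffer library. It was also the ENV library with the fewest microglial transcripts (91.0 CPM), whose part in these values was not tested. Ccl19, a ligand of CCR7, had 4.06, 4.57, 16.7 and 37.0 CPM with ENV and 0, 0, 0.192 and 0.243 CPM with buffer (log2 change 7.03 ± 1.13, adjusted p = 0.00519). Ccl22, a ligand of CCR4, had 9.22, 3.78, 6.93 and 3.18 CPM with ENV and no count in any buffer library, at least 227-fold higher (floor of 3 counts over the 4 buffer libraries).

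The neutrophil attractants of the CXC family rose in all 4 replicate numbers. Cxcl1 had 714, 493, 1184 and 1528 CPM with ENV and 18.0, 27.5, 41.4 and 167 CPM with buffer (log2 change 3.95 ± 0.78, adjusted p = 0.0115). Cxcl6 had 896, 412, 2004 and 2279.6 CPM with ENV and 3.12, 3.44, 8.10 and 42.7 CPM with buffer (log2 change 6.60 ± 1.13, adjusted p = 0.00666). Both Cxcl2 and Cxcl3 rose by log2 changes of 5.66 ± 1.13 and 6.12 ± 1.00 (adjusted p = 0.0121 and 0.00552). The interferon-inducible ligands of CXCR3, which attract T cells, rose as well. Cxcl10 had 376, 213, 109 and 71.9 CPM with ENV and 11.4, 12.4, 10.3 and 39.8 CPM with buffer (log2 change 3.38 ± 0.67, adjusted p = 0.0114). Cxcl11 had 176, 77.5, 64.7 and 116 CPM with ENV and 0.617, 0.187, 0.0768 and 2.27 CPM with buffer (log2 change 7.00 ± 0.83, adjusted p = 0.00162). Cxcl9 rose by 5.59 ± 0.90 (adjusted p = 0.00519). Cxcl10 was lowest with ENV in replicate 4 and highest with buffer in the same number, so that its paired ratio was smallest there. Cxcl16, a membrane-bound scavenger and chemokine, had 802, 589.7, 663 and 1002 CPM with ENV and 54.9, 40.1, 52.2 and 96.7 CPM with buffer (log2 change 3.65 ± 0.31, adjusted p = 0.000508). Cx3cl1, the ligand of the microglial receptor CX3CR1, rose by 3.52 ± 0.56 (adjusted p = 0.00512) and Cxcl12, the ligand of CXCR4, by 2.57 ± 0.43 (adjusted p = 0.00627).

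**Figure D4:**
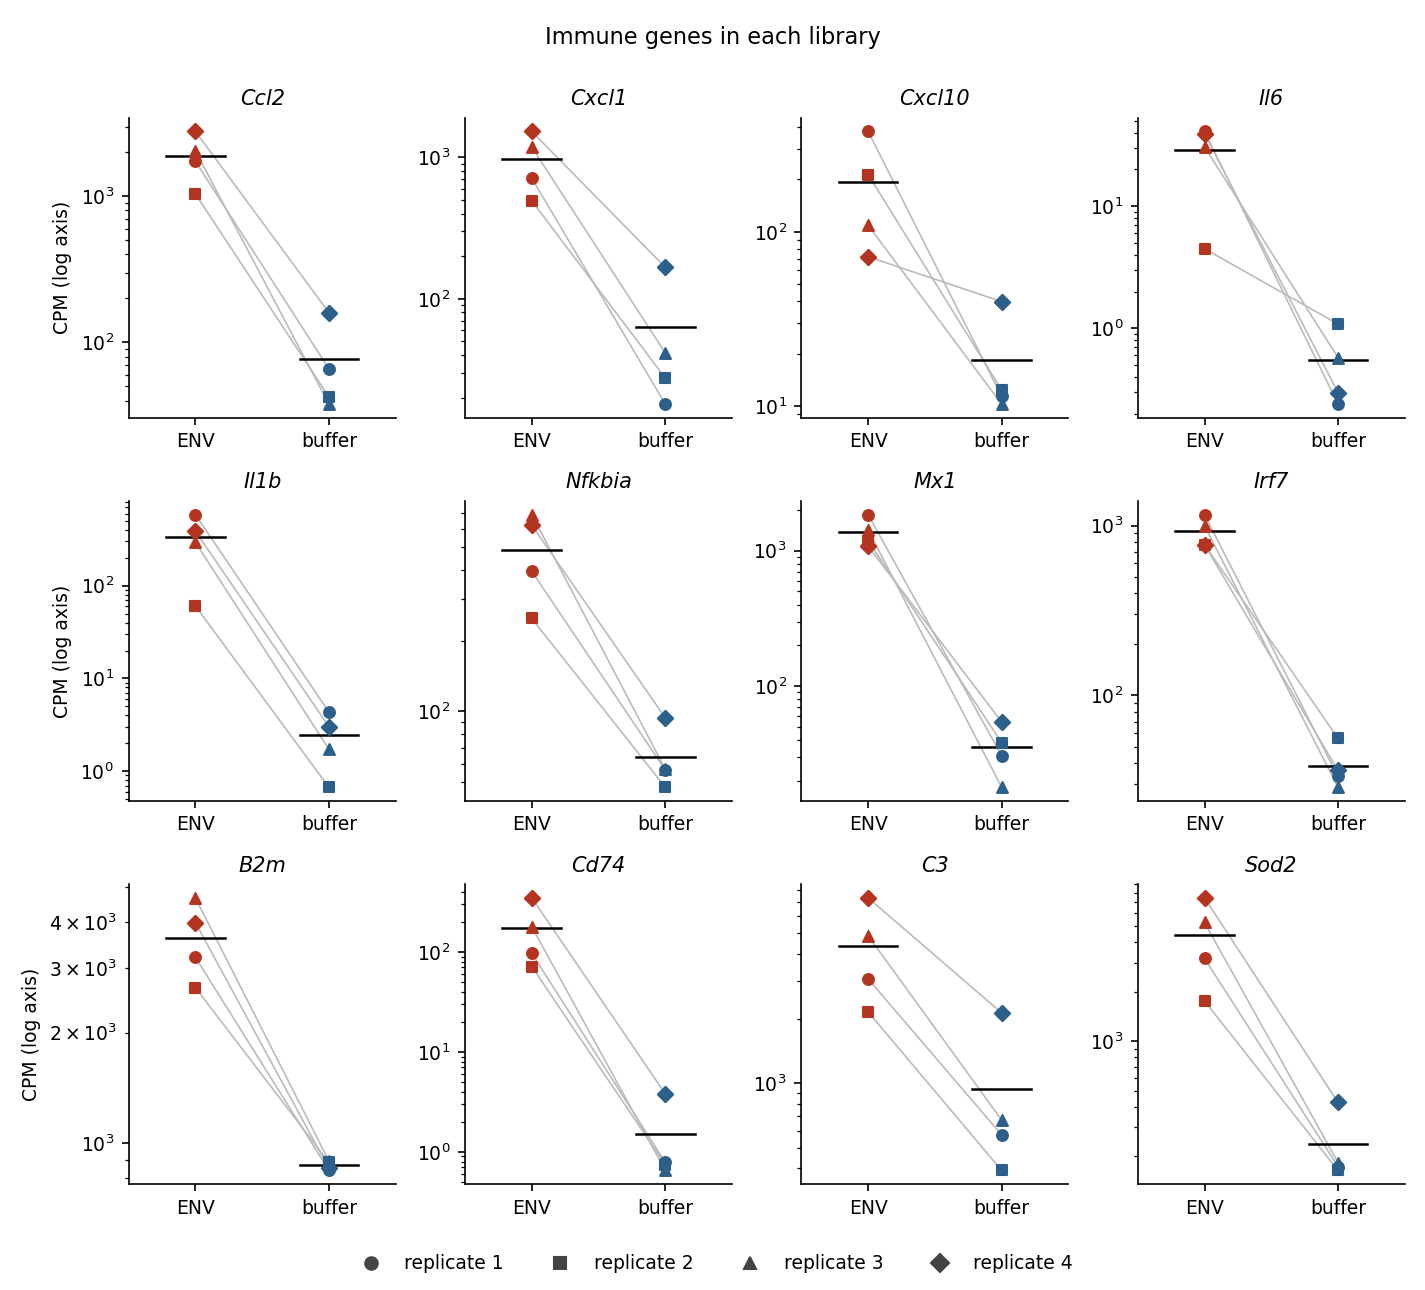
CPM on log axes of 12 immune genes in the 4 ENV and 4 buffer libraries, with grey lines joining the same replicate number and black bars for the group means. The groups do not overlap in any of the 12, ENV replicate 2 (square) is the lowest ENV library in 10 of them, and buffer replicate 4 (diamond) is the highest buffer library in 8.

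Cytokine and colony-stimulating factor genes followed, with 17 of 30 tested members higher, 1 lower and a median log2 change of 2.02. Falls numbered 0 without ENV replicates 1 or 3, buffer replicates 1 or 3 or both libraries numbered 4, 2 with DESeq2 and 3 with the replicate block. The interleukin-1 genes rose steeply. Il1b had 584, 60.5, 295 and 388 CPM with ENV and 4.35, 0.672, 1.73 and 3.03 CPM with buffer (log2 change 7.07 ± 0.86, adjusted p = 0.00178). Il1a had 309, 24.4, 209 and 208 CPM with ENV and 1.34, 0.261, 0.499 and 1.03 CPM with buffer (log2 change 7.87 ± 0.91, adjusted p = 0.00144). Il1rn, the antagonist of their receptor, had 52.1, 10.3, 120.4 and 216 CPM with ENV and 2.67, 0.411, 1.54 and 2.52 CPM with buffer (log2 change 5.78 ± 0.99, adjusted p = 0.00675). ENV replicate 2 was again the lowest ENV library in all 3 genes, and the groups did not overlap. Il6 had 40.9, 4.48, 30.5 and 39.1 CPM with ENV and 0.240, 1.08, 0.576 and 0.298 CPM with buffer (log2 change 5.73 ± 0.80, adjusted p = 0.00299). Tnf had 32.7, 5.33, 38.6 and 47.2 CPM with ENV and 4.15, 1.31, 2.53 and 4.71 CPM with buffer (log2 change 3.28 ± 0.67, adjusted p = 0.0129). Lif, a cytokine of the interleukin-6 family, had 107, 56.9, 66.6 and 154 CPM with ENV and 19.6, 23.8, 21.9 and 38.0 CPM with buffer (log2 change 1.89 ± 0.35, adjusted p = 0.00915).

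The colony-stimulating factors, which support macrophages and granulocytes, all rose. Csf1, the growth factor of microglia and macrophages, had 1219.9, 895, 1799 and 1717 CPM with ENV and 375, 382, 427 and 487 CPM with buffer (log2 change 1.75 ± 0.23, adjusted p = 0.00221), with no overlap. Csf2 had 10.7, 4.04, 10.7 and 27.5 CPM with ENV and 0, 0, 0.0384 and 0.189 CPM with buffer (log2 change 7.58 ± 0.95, adjusted p = 0.00195). Csf3 had 63.9, 3.72, 22.4 and 72.6 CPM with ENV and, with buffer, counts in replicate 4 alone: 4721 counts over the 4 ENV libraries and 3 over the 4 buffer libraries, a ratio of 1568 (95% counting interval 536 to 7607). Il12b, the subunit shared by interleukins 12 and 23, had 6.36, 3.85, 10.0 and 3.29 CPM with ENV and 0, 0, 0.0768 and 0.0541 CPM with buffer (log2 change 7.29 ± 0.72, adjusted p = 0.000791). Lta, which encodes lymphotoxin alpha, had 7.21, 0.914, 7.06 and 7.15 CPM with ENV and no count with buffer, at least 218-fold higher. Il16, a ligand of CD4, was the member that fell, with 0.671, 0.0631, 0.663 and 1.27 CPM with ENV and 9.80, 0.934, 8.83 and 9.71 CPM with buffer (log2 change -3.46 ± 0.87, adjusted p = 0.0286). Its groups overlapped at buffer replicate 2. The call did not hold in 5 omissions (adjusted p = 0.0767 and 0.0761 without ENV replicates 1 and 3, and 0.0680, 0.0724 and 0.0532 without buffer replicates 1, 3 and 4, against 0.000105 to 0.155 over all alternatives).

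NF-kB feedback genes were called higher in 21 of 26 tested members, with none lower (1 without ENV replicate 2 or with upper quartile factors or DESeq2) and a median log2 change of 1.83. Nfkbia, which encodes the inhibitor that holds NF-kB in the cytoplasm, had 395, 249, 688 and 620.3 CPM with ENV and 56.4, 47.6, 56.9 and 93.9 CPM with buffer (log2 change 2.94 ± 0.36, adjusted p = 0.00187). Tnfaip3, the ubiquitin-editing enzyme A20, had 260.3, 136, 348 and 581 CPM with ENV and 32.3, 32.9, 31.8 and 43.4 CPM with buffer (log2 change 3.24 ± 0.41, adjusted p = 0.00201). The A20 partner Tnip1 had 720.5, 466, 1071 and 887 CPM with ENV and 126, 143, 128 and 135 CPM with buffer (log2 change 2.57 ± 0.24, adjusted p = 0.000684). No buffer library reached any ENV library in these 3 genes. Tnip3, near the floor with buffer, rose by 6.89 ± 0.83 (adjusted p = 0.00175), the anti-apoptotic Birc3 by 3.88 ± 0.64 (adjusted p = 0.00572) and Nfkbiz, a nuclear co-activator, by 3.50 ± 0.70 (adjusted p = 0.0118). Among the subunits, the precursors Nfkb2 and Nfkb1 rose by 2.15 ± 0.28 and 1.53 ± 0.19 (adjusted p = 0.00214 and 0.00195), Relb by 1.84 ± 0.30 (adjusted p = 0.00562) and Rela by 1.04 ± 0.22 (adjusted p = 0.0141). Rel had 5.33, 3.56, 5.54 and 5.82 CPM with ENV, against 4.69, 3.47, 3.11 and 3.14 CPM with buffer, and did not pass (log2 change 0.49 ± 0.23, adjusted p = 0.173).

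Promoters of some strongly changed genes are shown because the transcription factors named above bind short motifs whose letters can be found in them. They were picked among called genes that hold a match and do not stand for strongly changed genes at large. The shares of genes with a match are given below the sequences. The sequences are from RefSeq (GRCr8), the 120 bases before the annotated start, 5′ to 3′ on the gene's strand. Capitals mark matches of either strand to the NF-kB consensus in the first 5 and, in the next 3, to GAAANNGAAA, the core of the interferon-stimulated response element. The last, of Vcam1, holds both motifs.
Nfkbia (chr6:78597073-78597192, minus strand): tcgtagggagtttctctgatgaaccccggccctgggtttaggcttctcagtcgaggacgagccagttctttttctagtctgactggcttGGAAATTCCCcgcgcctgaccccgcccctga
Tnfaip3 (chr1:15543980-15544099, minus strand): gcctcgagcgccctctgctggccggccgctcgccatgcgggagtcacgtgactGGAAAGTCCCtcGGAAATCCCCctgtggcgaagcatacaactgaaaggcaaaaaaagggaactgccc
Cxcl1 (chr14:17479322-17479441, minus strand): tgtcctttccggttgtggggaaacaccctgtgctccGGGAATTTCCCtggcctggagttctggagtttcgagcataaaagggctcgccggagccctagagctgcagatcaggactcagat
Cxcl6 (chr14:17596418-17596537, minus strand): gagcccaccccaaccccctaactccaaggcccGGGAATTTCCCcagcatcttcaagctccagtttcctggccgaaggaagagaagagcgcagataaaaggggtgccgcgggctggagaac
Il6 (chr4:5894576-5894695, minus strand): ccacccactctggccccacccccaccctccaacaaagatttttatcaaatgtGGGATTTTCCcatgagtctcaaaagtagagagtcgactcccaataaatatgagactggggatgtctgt
Ifit3 (chr1:241527206-241527325, plus strand): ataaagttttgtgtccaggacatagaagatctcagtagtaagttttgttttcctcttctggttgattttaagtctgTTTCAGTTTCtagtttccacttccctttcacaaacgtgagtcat
Irf7 (chr1:205800024-205800143, minus strand): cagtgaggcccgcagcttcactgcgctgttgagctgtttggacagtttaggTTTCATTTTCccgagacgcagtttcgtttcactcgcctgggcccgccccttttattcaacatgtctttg
Gbp2 (chr2:234005607-234005726, plus strand): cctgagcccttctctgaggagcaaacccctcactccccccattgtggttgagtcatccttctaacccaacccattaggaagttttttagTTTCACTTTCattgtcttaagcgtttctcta
Vcam1 (chr2:206742784-206742903, minus strand): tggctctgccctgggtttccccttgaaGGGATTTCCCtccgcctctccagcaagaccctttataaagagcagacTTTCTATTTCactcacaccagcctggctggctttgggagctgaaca
In Cxcl1, Cxcl6 and Vcam1 the capitals hold overlapping NF-kB matches on both strands, and in Tnfaip3 they hold 2 separate matches. Over the 250 bases before the start, the NF-kB consensus was found in 437 of the 10147 tested genes with a RefSeq promoter (4.31%). It was found in 8 of 21 NF-kB feedback genes (38.1%), 5 of 12 CXC and CX3C chemokines (41.7%) and 2 of 8 CC chemokines. Of all genes called higher 82 of 1055 held it (7.77%), and of those that rose by 8-fold or more 26 of 122 (21.3%). Among all genes called lower the share was 3.48%. GAAANNGAAA was found in 2.61% of the tested genes and in 23 of 34 interferon-stimulated genes (67.6%). Its share was 7.3% of all genes called higher, 16.4% of those that rose by 8-fold or more and 1.68% of all genes called lower. A match to these letters is a description of the sequence and not a measured binding site.

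The genes of the receptor side moved little by comparison, with 4 of 18 tested members of the TLR4 complex and its adaptors called higher, none lower (1 with upper quartile factors) and a median log2 change of 0.25. Tlr4 itself had 4.98, 1.36, 2.95 and 3.83 CPM with ENV and 5.83, 1.72, 3.65 and 4.98 CPM with buffer (log2 change -0.30 ± 0.47, adjusted p = 0.703), and the groups overlapped. Cd14 had 162, 11.9, 63.1 and 119 CPM with ENV and 26.1, 8.55, 17.4 and 31.5 CPM with buffer, higher with ENV in all 4 replicate numbers but short of the threshold (log2 change 2.08 ± 0.72, adjusted p = 0.0807). It was called with the replicate block (adjusted p = 0.0130). Ly96 had 6.18, 4.35, 5.31 and 4.52 CPM with ENV and 3.84, 1.87, 2.23 and 3.19 CPM with buffer, without overlap (log2 change 0.87 ± 0.26, adjusted p = 0.0548, and adjusted p = 0.0178 with the block). The adaptor Myd88 had 36.3, 32.3, 44.2 and 55.6 CPM with ENV and 30.2, 29.8, 36.2 and 37.9 CPM with buffer and did not pass (log2 change 0.33 ± 0.18, adjusted p = 0.238). The called members included Irak3, an inhibitor of the pathway, at 56.4, 24.2, 82.6 and 94.2 CPM with ENV and 13.7, 12.3, 16.1 and 22.3 CPM with buffer (log2 change 2.00 ± 0.40, adjusted p = 0.0122). The kinase Irak2 had 20.1, 7.95, 17.5 and 18.8 CPM with ENV and 6.06, 5.12, 6.72 and 7.14 CPM with buffer (log2 change 1.36 ± 0.28, adjusted p = 0.0137).

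Interferon-stimulated genes were the most uniformly changed list: 41 of 42 tested members rose, none fell (1 with the replicate block), and the median log2 change was 2.61. The count was 41 in every omission of a single library. Ifit3, which restricts viral translation, had 319, 155, 172 and 82.5 CPM with ENV and 2.47, 3.36, 1.42 and 3.33 CPM with buffer (log2 change 6.10 ± 0.50, adjusted p = 0.000444). Mx1, an antiviral dynamin-like GTPase, had 1846, 1185, 1422 and 1079 CPM with ENV and 30.7, 38.3, 17.9 and 54.4 CPM with buffer (log2 change 5.29 ± 0.38, adjusted p = 0.000348). Its relative Mx2 had 1472, 1109, 1406 and 675 CPM with ENV and 131, 208, 146 and 168 CPM with buffer (log2 change 2.84 ± 0.27, adjusted p = 0.000724). The groups were far apart in all 3 genes, and here ENV replicate 4, the strongest ENV library for many cytokines, was the lowest of the ENV group. Oasl had 98.7, 46.3, 63.6 and 38.8 CPM with ENV and 1.27, 3.21, 1.77 and 1.84 CPM with buffer (log2 change 4.94 ± 0.41, adjusted p = 0.000444). Gbp2, an interferon-inducible GTPase, had 4191, 2206, 3164 and 3506 CPM with ENV and 254, 239, 240.2 and 590.4 CPM with buffer (log2 change 3.30 ± 0.37, adjusted p = 0.00137). The ADP-ribosyltransferase gene Parp14 rose by 2.34 ± 0.25 (adjusted p = 0.00105) and the secreted glycoprotein gene Lgals3bp by 2.06 ± 0.14 (adjusted p = 0.000348). Epsti1 was the member not called, at 1.87, 0.347, 2.55 and 2.64 CPM with ENV and 8.74, 1.34, 3.76 and 6.55 CPM with buffer. It was lower with ENV in all 4 replicate numbers (log2 change -1.46 ± 0.69, adjusted p = 0.178, and adjusted p = 0.0159 with the block), and ENV replicate 2 and buffer replicate 2 were the lowest of their groups.

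Of 23 tested interferon regulatory factors, STATs, JAKs and interferon receptors 13 rose and none fell (median log2 change 1.18). With the replicate block 18 were called higher and 1 lower, and with DESeq2 17 were called higher and 1 lower. Irf7, the regulator that amplifies interferon production, had 1160.0, 772, 999 and 772 CPM with ENV and 33.4, 55.9, 28.8 and 36.2 CPM with buffer (log2 change 4.58 ± 0.26, adjusted p = 0.000214), with the groups far apart. Irf1 had 147, 103, 191 and 189 CPM with ENV and 40.6, 43.6, 36.8 and 49.8 CPM with buffer (log2 change 1.88 ± 0.20, adjusted p = 0.00115). Jak2 had 257, 124, 522 and 437 CPM with ENV and 64.2, 59.5, 55.3 and 60.7 CPM with buffer (log2 change 2.48 ± 0.40, adjusted p = 0.00516). Stat2, a subunit of the factor that binds interferon-stimulated response elements, rose by 1.55 ± 0.15 (adjusted p = 0.000774), Stat3, the mediator of interleukin-6 signals, by 1.11 ± 0.23 (adjusted p = 0.0133) and the interferon gamma receptor chain Ifngr1 by 1.60 ± 0.19 (adjusted p = 0.00148). The groups did not overlap in any of them.

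Antigen presentation genes rose in both classes. Of 17 tested MHC class I, peptide loading and immunoproteasome genes 15 rose and none fell (median log2 change 1.73). B2m, the light chain of class I molecules, had 3212, 2654, 4670.1 and 3997 CPM with ENV and 840.2, 884, 892 and 852 CPM with buffer (log2 change 2.07 ± 0.19, adjusted p = 0.000594). The narrow spread of the buffer libraries contrasted with the wider ENV group. RT1-S3, a rat class I gene, had 516, 451, 469.9 and 405 CPM with ENV and 62.7, 94.6, 66.4 and 71.0 CPM with buffer (log2 change 2.64 ± 0.15, adjusted p = 0.000214). Both RT1-A1 and RT1-A2 rose by 3.03 ± 0.39 and 3.50 ± 0.40 (adjusted p = 0.00214 and 0.00146). Reads shared between these near-identical RT1 genes could not be separated. Nlrc5, the transactivator of class I genes, rose by 2.39 ± 0.22 (adjusted p = 0.000684), the immunoproteasome subunit gene Psmb8 by 1.73 ± 0.16 (adjusted p = 0.000699) and the peptide transporter gene Tap1 by 1.65 ± 0.16 (adjusted p = 0.000777).

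Class II genes, which present antigen to CD4 T cells, were close to the floor with buffer, and 7 of 12 tested members rose with none lower (median 4.72). With the replicate block 1 member was called lower. Ciita, the transactivator of class II genes, had 12, 5.80, 10.1 and 12.2 CPM with ENV and 0.240, 0.187, 0.0768 and 0.649 CPM with buffer (log2 change 5.03 ± 0.55, adjusted p = 0.00122). Cd74, the invariant chain, had 96.8, 71.5, 179 and 348 CPM with ENV and 0.788, 0.747, 0.653 and 3.81 CPM with buffer (log2 change 6.80 ± 0.83, adjusted p = 0.00180). RT1-Da had 15.5, 15.4, 26.1 and 65.1 CPM with ENV and 0.137, 0.112, 0.0384 and 0.298 CPM with buffer (log2 change 7.57 ± 0.74, adjusted p = 0.000767). ENV replicate 4 was the highest of the 8 libraries in all 3 genes. RT1-Ba had 1.41, 5.08, 8.79 and 17.5 CPM with ENV, with 977 counts over the 4 ENV libraries and 2 over the 4 buffer libraries, a ratio of 487 (95% counting interval 134 to 4025). RT1-Db1 had 2.72, 2.08, 3.81 and 16.1 CPM with ENV, with 727 counts over the 4 ENV libraries and 3 over the 4 buffer libraries, a ratio of 241 (95% counting interval 82.3 to 1174). Microglia also carry class II genes, and the part of microglial transcripts in these values was not tested.

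Complement genes split, with 7 of 19 tested members higher, 2 lower (1 without both libraries numbered 4 and 6 with the replicate block) and a median log2 change of -0.20. Cfb, the alternative pathway protease, had 2082, 1321, 3935 and 4384 CPM with ENV and 180.0, 191, 191 and 199 CPM with buffer (log2 change 3.95 ± 0.39, adjusted p = 0.000777), with the groups far apart. C3, the central complement component, had 3064, 2148, 4864 and 7316 CPM with ENV and 573, 392, 673 and 2126 CPM with buffer (log2 change 2.21 ± 0.61, adjusted p = 0.0393). Buffer replicate 4 was close to the lowest ENV library. The call of C3 did not hold in 6 of the 8 omissions (adjusted p = 0.0641, 0.0818 and 0.0766 without ENV replicates 1, 3 and 4, and 0.100, 0.0792 and 0.111 without buffer replicates 1, 2 and 3, against 0.000656 to 0.329 over all alternatives). The C1 subunit gene C1s rose by 1.93 ± 0.30 (adjusted p = 0.00442), the C1 inhibitor gene Serping1 by 2.68 ± 0.55 (adjusted p = 0.0132) and C4b by 3.12 ± 0.34 (adjusted p = 0.00108). Clu, a chaperone that inhibits the terminal complex, had 2519, 1941, 6432 and 6790.1 CPM with ENV and 1132, 1454, 1433 and 1296 CPM with buffer (log2 change 1.73 ± 0.41, adjusted p = 0.0232). Its call did not hold in 4 omissions (adjusted p = 0.0597 without ENV replicate 3, and 0.0682, 0.0543 and 0.0657 without buffer replicates 1, 2 and 3, against 0.000210 to 0.319 over all alternatives). Cfp, the stabilizer of the alternative convertase, had 6.78, 3.00, 4.84 and 3.53 CPM with ENV and 26.8, 7.43, 20.6 and 22.2 CPM with buffer (log2 change -2.09 ± 0.42, adjusted p = 0.0118, and adjusted p = 0.0514 without both libraries numbered 4). Cd59, the membrane inhibitor of the terminal complex, had 30.8, 33.4, 34.3 and 25.1 CPM with ENV and 61.3, 58.8, 65.5 and 48.6 CPM with buffer (log2 change -0.92 ± 0.13, adjusted p = 0.00297). C1qa, made by microglia in brain, had 7.63, 1.80, 14.0 and 23.6 CPM with ENV and 85.6, 12.9, 56.9 and 77.5 CPM with buffer, lower with ENV in all 4 replicate numbers (log2 change -2.31 ± 0.78, adjusted p = 0.0768, and adjusted p = 0.00344 with the block).

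Of 18 tested acute-phase and antiprotease genes 10 rose and 1 fell (median log2 change 2.29). The count of falls was 2 without ENV replicate 2 or with upper quartile factors, DESeq2 or the replicate block. Lcn2, a siderophore-binding protein, had 743, 357, 995 and 1845 CPM with ENV and 6.89, 4.59, 7.52 and 49.9 CPM with buffer (log2 change 5.83 ± 0.99, adjusted p = 0.00650). Ptx3, a soluble pattern receptor, had 66.4, 20.9, 78.4 and 188 CPM with ENV and 4.69, 3.85, 3.57 and 6.57 CPM with buffer (log2 change 4.23 ± 0.63, adjusted p = 0.00401). Buffer replicate 4 was the highest buffer library for Lcn2 and Ptx3. Orm1, an acute-phase plasma protein gene, had 17.2, 5.77, 43.1 and 139.7 CPM with ENV, with 6052 counts over the 4 ENV libraries and 1 over the 4 buffer libraries, a ratio of 6031 (95% counting interval 1082 to 238240). Wfdc21 had 32.8, 6.18, 36.8 and 56.7 CPM with ENV and 0, 0.0373, 0.0768 and 0.0812 CPM with buffer, at or below the floor (log2 change 9.25 ± 0.92, adjusted p = 0.000799). A2m, a protease inhibitor, had 391, 364, 581 and 449 CPM with ENV and 824, 794, 1131 and 1322 CPM with buffer and fell (log2 change -1.19 ± 0.22, adjusted p = 0.00832). Cp, the ferroxidase ceruloplasmin, had 1411, 1289.9, 2785 and 3699 CPM with ENV and 493, 623, 829.9 and 1778 CPM with buffer, higher in all 4 replicate numbers but not past the threshold (log2 change 1.302 ± 0.49, adjusted p = 0.103, and adjusted p = 0.00175 with the block).

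Adhesion and checkpoint genes rose in 8 of 13 tested members, with none lower (median 1.84). Vcam1, the leukocyte adhesion molecule whose promoter is printed above, had 1227, 574, 1610.2 and 1492 CPM with ENV and 63.3, 54.0, 53.2 and 194 CPM with buffer (log2 change 3.75 ± 0.55, adjusted p = 0.00371). Icam1, the ligand of leukocyte integrins, had 413, 272, 703 and 826 CPM with ENV and 130.0, 149.8, 148 and 191 CPM with buffer (log2 change 1.84 ± 0.33, adjusted p = 0.00844). Cd44, the hyaluronan receptor, had 1349.6, 984, 1775 and 1989.5 CPM with ENV and 490.1, 535, 459 and 843 CPM with buffer (log2 change 1.39 ± 0.27, adjusted p = 0.0112). The groups did not overlap in these 3 genes, and buffer replicate 4 was the highest buffer library in each. Cd274, which encodes the checkpoint ligand PD-L1, rose by 2.54 ± 0.30 (adjusted p = 0.00159). Cd69, an early activation antigen of leukocytes, had 24.1, 1.77, 11.5 and 11.2 CPM with ENV, with 1411 counts over the 4 ENV libraries and 1 over the 4 buffer libraries, a ratio of 1406 (95% counting interval 252 to 55574).

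Of 19 tested nitric oxide, prostaglandin, itaconate and oxidative burst genes 7 rose and none fell (median 0.80). Falls numbered 1 without buffer replicates 2 or 4 or both libraries numbered 4 or with DESeq2 and 2 with the replicate block. Nos2, the inducible nitric oxide synthase, had 258, 7.13, 30.5 and 55.1 CPM with ENV and 0.0343, 0.0373, 0 and 0.0812 CPM with buffer (log2 change 10.90 ± 1.58, adjusted p = 0.00359). Every buffer value was at or below the floor of 3 counts, so the size of this rise is poorly fixed. ENV replicate 1 was several times above the other ENV libraries. The genes that supply its substrate and cofactor rose with it. Ass1, in arginine synthesis, had 491, 416, 591 and 808 CPM with ENV and 20.8, 48.7, 32.5 and 111 CPM with buffer (log2 change 3.43 ± 0.53, adjusted p = 0.00438). The arginine transporter gene Slc7a2 rose by 2.82 ± 0.48 (adjusted p = 0.00644), and Gch1, in tetrahydrobiopterin synthesis, by 3.47 ± 0.46 (adjusted p = 0.00241). Acod1, which makes itaconate, had 28.0, 2.24, 21.2 and 27.9 CPM with ENV and 0.0685, 0.0747, 0.154 and 0.406 CPM with buffer (log2 change 6.70 ± 0.94, adjusted p = 0.00299). Ptgs2, the inducible cyclooxygenase, had 90.4, 4.79, 16.1 and 9.21 CPM with ENV and 9.32, 3.40, 4.80 and 1.24 CPM with buffer. It was higher with ENV in all 4 replicate numbers, and ENV replicate 1 stood far above the rest (log2 change 2.69 ± 0.99, adjusted p = 0.0990, and adjusted p = 0.0218 with the block). Alox5ap, needed for leukotriene synthesis, had 0.600, 0.0631, 0.365 and 0.924 CPM with ENV and 5.96, 0.635, 2.34 and 4.06 CPM with buffer (log2 change -2.74 ± 0.81, adjusted p = 0.0505, and adjusted p = 0.00157 with the block).

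Sod2, the mitochondrial superoxide dismutase, had the largest gain in CPM of all genes, with 3193, 1762, 5280.3 and 7456 CPM with ENV and 173, 164, 184 and 426 CPM with buffer (log2 change 4.22 ± 0.55, adjusted p = 0.00218). Gpx1, a glutathione peroxidase, had 179, 211, 204 and 259 CPM with ENV and 351, 409.9, 437 and 320.3 CPM with buffer and fell (log2 change -0.83 ± 0.14, adjusted p = 0.00680). Of 19 tested iron and heme genes 5 rose and 1 fell, with a median of 0.82. The count of rises was 3 without buffer replicates 1 or 3 and 9 with the replicate block. That of falls was 0 without ENV replicates 1, 3 or 4, buffer replicates 1, 3 or 4 or both libraries numbered 4 and 2 with the replicate block. Of 25 tested targets of the antioxidant regulator NRF2 4 rose (16%) and 1 fell (4%), with a median of 0.14, beside 9.52% and 8.35% of all tested genes. The count of rises was 2 without ENV replicate 1 or buffer replicates 1, 2 or 3. That of falls was 2 without buffer replicate 4 or both libraries numbered 4 or with RLE factors or a filter of at least 1 CPM in 4 libraries and 4 without ENV replicate 2 or with upper quartile factors, DESeq2 or the replicate block. Steap4, a metalloreductase, had 50.1, 25.1, 159 and 184 CPM with ENV and 0.822, 0.560, 1.23 and 5.71 CPM with buffer (log2 change 5.60 ± 0.97, adjusted p = 0.00704), and Slc39a14, an importer of zinc and iron, rose by 3.10 ± 0.36 (adjusted p = 0.00144). Fth1, the ferritin heavy chain, had 4129.5, 3036, 4614 and 6364 CPM with ENV and 2582, 3018, 3753 and 4759 CPM with buffer and did not pass (log2 change 0.36 ± 0.27, adjusted p = 0.394).

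Astrocyte filament and identity genes fell in 13 of 25 tested members, with none higher and a median log2 change of -0.84. The count of rises was 1 without ENV replicate 2, buffer replicate 4 or both libraries numbered 4 or with DESeq2 and 2 with the replicate block. Gfap had 1388, 2348, 1942 and 2611 CPM with ENV and 5102, 5899.7, 5588 and 6148 CPM with buffer (log2 change -1.46 ± 0.21, adjusted p = 0.00316). Vim had 4216, 6793, 5765 and 4455 CPM with ENV and 11558, 12705, 14156 and 13740.0 CPM with buffer (log2 change -1.30 ± 0.20, adjusted p = 0.00423), the largest loss of CPM of all genes. In both genes every ENV library lay below every buffer library. Synm, an intermediate filament protein that assembles with them, had 6.99, 16, 10.4 and 4.31 CPM with ENV and 214, 164, 180.4 and 62.3 CPM with buffer (log2 change -4.04 ± 0.51, adjusted p = 0.00201). S100b, a calcium-binding protein of astrocytes, had 73.7, 84.4, 138 and 92.2 CPM with ENV and 323, 245, 399 and 315 CPM with buffer (log2 change -1.72 ± 0.22, adjusted p = 0.00215). Sox9, the transcription factor of glial identity, had 74.6, 102, 86.0 and 60.9 CPM with ENV and 134, 150.1, 129 and 166 CPM with buffer (log2 change -0.84 ± 0.16, adjusted p = 0.0105).

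Other identity genes fell with them. Fabp7, a lipid-binding protein of radial glia, had 475, 672, 489 and 559 CPM with ENV and 1170.4, 1167, 1135 and 1153 CPM with buffer (log2 change -1.08 ± 0.13, adjusted p = 0.00159), and the buffer libraries differed little. Ttyh1 had 34.9, 50.7, 59.1 and 55.9 CPM with ENV and 193, 185, 275 and 349 CPM with buffer (log2 change -2.32 ± 0.25, adjusted p = 0.00115), and the metallothionein gene Mt3 had 70.6, 119, 61.4 and 138 CPM with ENV and 269, 289, 365 and 801 CPM with buffer (log2 change -2.15 ± 0.42, adjusted p = 0.0113). The groups did not overlap in these 3 genes. Slc39a12, a zinc transporter of astrocytes, fell by 2.43 ± 0.45 (adjusted p = 0.00922). Ntsr2, a neurotensin receptor of astrocytes, had 0.177, 0.126, 0.0332 and 0.103 CPM with ENV and 1.61, 1.83, 2.38 and 4.19 CPM with buffer (log2 change -4.47 ± 0.51, adjusted p = 0.00137). Aldh1l1, a folate enzyme used as an astrocyte marker, had 71.0, 60.9, 74.6 and 131 CPM with ENV and 39.1, 46.5, 32.2 and 62.9 CPM with buffer, higher with ENV in all 4 replicate numbers but short of the threshold (log2 change 0.90 ± 0.28, adjusted p = 0.0615, and adjusted p = 0.00586 with the block).

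**Figure D5:**
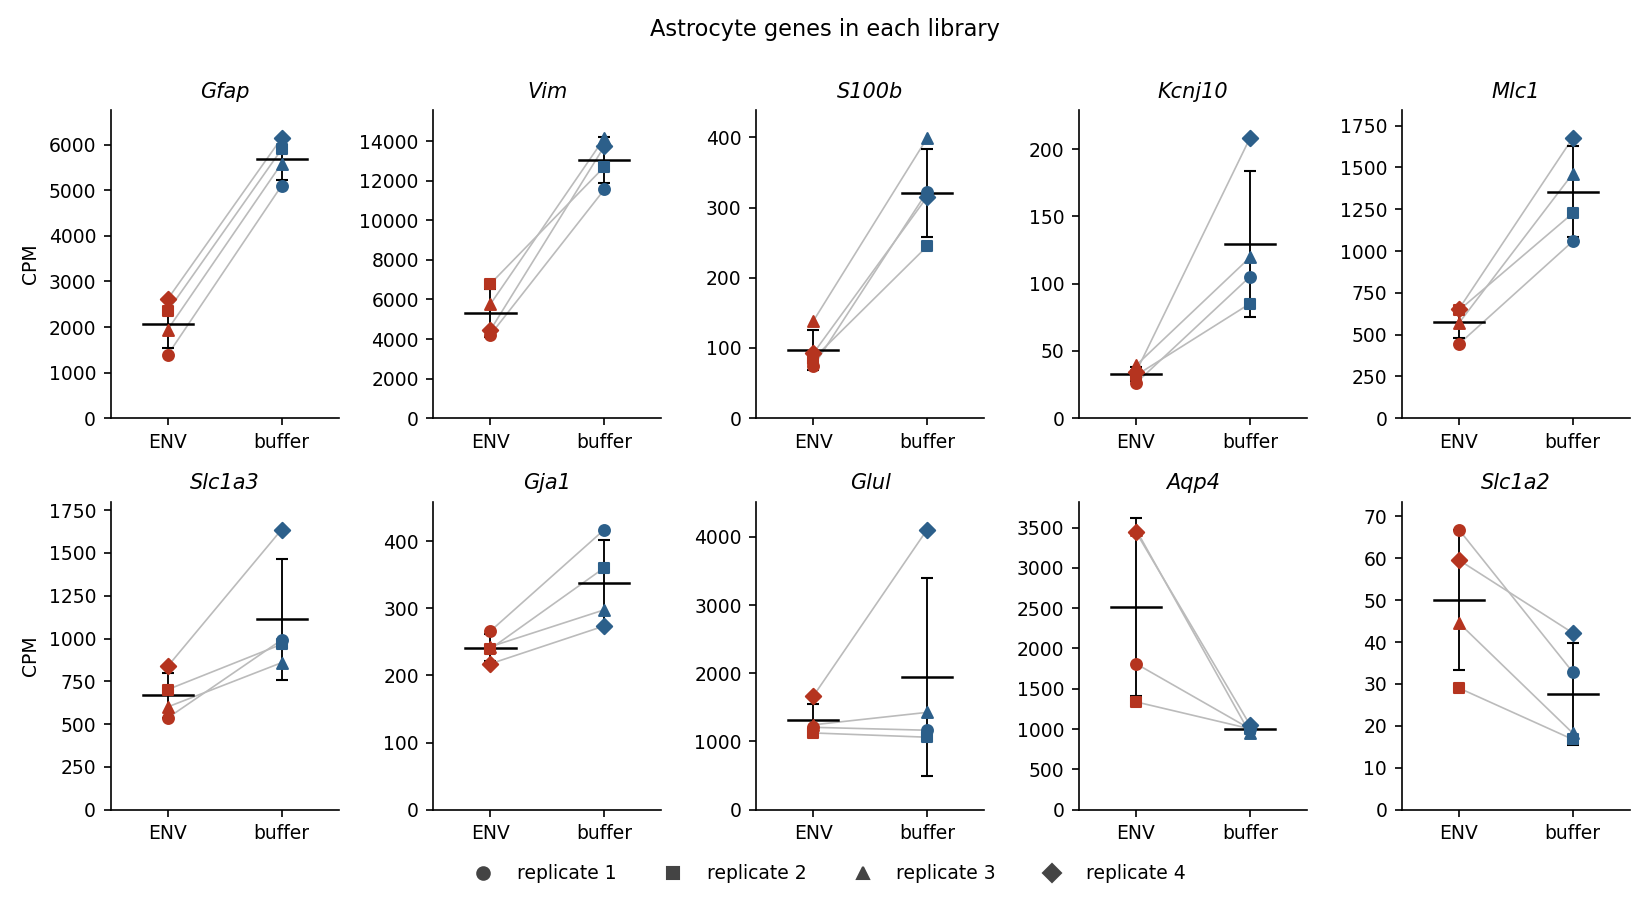
CPM (axes from 0) of 10 astrocyte genes in the 4 ENV and 4 buffer libraries, with grey lines joining the same replicate number and black bars for the mean ± SD. Gfap, Vim, S100b, Kcnj10, Mlc1, Slc1a3 and Gja1 are lower in every ENV library than in every buffer library, Aqp4 is higher, and in Glul buffer replicate 4 (4108 CPM) stands apart from the other 7 libraries.

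Genes for glutamate, potassium and water handling and for junctions also shifted, with 14 of 28 tested members lower, 4 higher and a median log2 change of -0.72. The count of rises was 1 without buffer replicate 3 and 2 without ENV replicates 1 or 3, buffer replicates 1 or 2 or both libraries numbered 4. Kcnj10, the potassium channel Kir4.1, had 26, 31.8, 39.2 and 34.3 CPM with ENV and 105, 85.2, 119 and 208 CPM with buffer (log2 change -1.98 ± 0.28, adjusted p = 0.00308). Mlc1, a membrane protein of astrocyte endfeet, had 443, 645, 568 and 652 CPM with ENV and 1058, 1226, 1463 and 1676 CPM with buffer (log2 change -1.23 ± 0.19, adjusted p = 0.00393). Atp1b2, a sodium pump subunit, had 127, 117, 197 and 271 CPM with ENV and 409, 371, 479.9 and 611 CPM with buffer (log2 change -1.39 ± 0.29, adjusted p = 0.0138). None of these groups overlapped. Of the junction genes, Gja1 (connexin 43) had 266, 239.6, 243 and 217 CPM with ENV and 417, 361, 298 and 274 CPM with buffer (log2 change -0.48 ± 0.14, adjusted p = 0.0494). Its call did not hold in 7 omissions (adjusted p = 0.0750, 0.0838, 0.107 and 0.101 without ENV replicates 1, 2, 3 and 4, and 0.109, 0.118 and 0.0775 without buffer replicates 1, 2 and 3, against 0.0130 to 1.00 over all alternatives). Gjb6 (connexin 30) was at or below 1 CPM in every library and fell by 1.96 ± 0.32 (adjusted p = 0.00563). Grm5, a metabotropic glutamate receptor gene, had 5.16, 6.72, 7.66 and 6.40 CPM with ENV and 26.4, 17.7, 28.9 and 70.7 CPM with buffer (log2 change -2.47 ± 0.42, adjusted p = 0.00629).

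The glutamate transporters did not pass the threshold and differed in direction. Slc1a3 (GLAST) had 536, 702, 600.2 and 837 CPM with ENV and 992, 967, 859 and 1637 CPM with buffer, without overlap (log2 change -0.74 ± 0.23, adjusted p = 0.0617, and adjusted p = 0.00745 with the block). Slc1a2 (GLT-1) had 66.9, 29, 44.6 and 59.6 CPM with ENV and 32.8, 16.8, 18.3 and 42.2 CPM with buffer, higher with ENV in all 4 replicate numbers (log2 change 0.86 ± 0.36, adjusted p = 0.135, and adjusted p = 0.00502 with the block). Glul, the glutamine synthetase, had 1207, 1125, 1244 and 1663 CPM with ENV and 1165, 1063, 1427 and 4108 CPM with buffer (log2 change -0.57 ± 0.43, adjusted p = 0.407). Without buffer replicate 4 its log2 change was 0.10. Aqp4, the water channel of astrocytes, rose, with 1811, 1337, 3475 and 3444 CPM with ENV and 1003, 1004, 945 and 1051 CPM with buffer (log2 change 1.33 ± 0.31, adjusted p = 0.0205). The buffer libraries of Aqp4 were close together and the ENV libraries were spread. The call did not hold in 4 omissions (adjusted p = 0.0522 without ENV replicate 3, and 0.0568, 0.0531 and 0.0665 without buffer replicates 1, 2 and 3, against 0.000312 to 0.713 over all alternatives). Slc6a9, a glycine transporter, had 9.85, 8.64, 8.79 and 7.87 CPM with ENV and 3.26, 2.58, 5.64 and 3.25 CPM with buffer and rose (log2 change 1.26 ± 0.25, adjusted p = 0.0112).

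Lists named in earlier work for reactive astrocytes held members of both directions. Of 12 tested pan-reactive genes 6 rose (Lcn2, Steap4, Timp1, Cxcl10, Cd44 and Osmr) and 3 fell (Gfap, Vim and the small heat shock protein gene Hspb1), with a median of 0.96. Osmr, the oncostatin M receptor, had 290.3, 184, 511 and 433 CPM with ENV and 97.0, 112, 104 and 115 CPM with buffer (log2 change 1.73 ± 0.29, adjusted p = 0.00607). Of 8 tested A1 genes 4 rose (C3, Gbp2, Serping1 and Psmb8) and none fell (median 1.87). The count of falls was 1 without ENV replicates 2 or 4, buffer replicate 4 or both libraries numbered 4 or with upper quartile factors or DESeq2 and 2 with the replicate block, and the block called 5 higher. Of 12 tested A2 genes 2 rose (5 with DESeq2 or the replicate block) and 1 fell, shares of 16.7% and 8.33% beside 9.52% and 8.35% of all tested genes. The transglutaminase gene Tgm1 had 16.3, 11.4, 9.48 and 10.2 CPM with ENV and 2.74, 1.64, 1.5 and 3.35 CPM with buffer (log2 change 2.35 ± 0.31, adjusted p = 0.00230). Cd109, a co-receptor that restrains TGF-beta signals, had 10.6, 11.3, 7.23 and 3.73 CPM with ENV and 34.7, 30.2, 26.8 and 23.7 CPM with buffer (log2 change -1.81 ± 0.32, adjusted p = 0.00772).

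Astrocyte synapse and neurite factors, not all of them secreted, were called lower in 7 of 22 tested members (3 without buffer replicate 3, 4 without ENV replicate 3 or buffer replicates 1 or 2, 13 with DESeq2 and 16 with the replicate block) and higher in none (1 with the replicate block), with a median of -0.73. Sparc, an antagonist of synapse formation, had 2729, 3819, 3805 and 2889 CPM with ENV and 4710.1, 6039, 5238 and 4362 CPM with buffer (log2 change -0.62 ± 0.18, adjusted p = 0.0450). Its call did not hold in 6 omissions (adjusted p = 0.117, 0.0596 and 0.0887 without ENV replicates 1, 3 and 4, and 0.0847, 0.106 and 0.113 without buffer replicates 1, 2 and 3, against 0.00263 to 1.00 over all alternatives). Plppr1, a membrane protein of growing neurites, had 0.600, 0.315, 1.26 and 0.582 CPM with ENV and 11.8, 11.3, 13.0 and 16.2 CPM with buffer (log2 change -4.24 ± 0.39, adjusted p = 0.000635). Thbs1, which promotes synapse formation, had 613, 1790.4, 1165 and 529 CPM with ENV and 4252, 6748, 4207 and 1017 CPM with buffer, lower with ENV in all 4 replicate numbers (log2 change -1.99 ± 0.59, adjusted p = 0.0522, and adjusted p = 0.00638 with the block). Of 17 tested proteoglycan, hyaluronan and tenascin genes 3 fell (1 without ENV replicates 1 or 3 and 5 with DESeq2 or the replicate block) and 1 rose (2 without ENV replicate 2), with a median of -0.24. The shares of that list were 17.6% lower and 5.88% higher, beside 8.35% and 9.52% of all tested genes. Bcan, the proteoglycan brevican of the perineuronal matrix, had 90.6, 91.7, 93.8 and 64.5 CPM with ENV and 288, 245, 252 and 223 CPM with buffer (log2 change -1.57 ± 0.14, adjusted p = 0.000564). Has2, a hyaluronan synthase, had 37.1, 8.99, 37.6 and 31.5 CPM with ENV and 2.78, 1.83, 0.998 and 2.08 CPM with buffer (log2 change 3.90 ± 0.51, adjusted p = 0.00218).

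Among 30 tested collagen, laminin and fibronectin genes 8 fell (26.7%) and 3 rose (10%), with a median of -0.66, beside 8.35% and 9.52% of all tested genes. The count of falls was 3 without ENV replicates 1 or 3 or buffer replicate 1, 4 without buffer replicates 2 or 3, 5 without ENV replicate 4 and 16 with the replicate block, and that of rises was 1 without ENV replicates 1 or 3, buffer replicate 3 or both libraries numbered 4. Col4a1, of basement membranes, had 576, 315, 640.1 and 834 CPM with ENV and 209, 186, 167 and 171 CPM with buffer and rose (log2 change 1.69 ± 0.26, adjusted p = 0.00468). Col12a1 had 172, 281, 238 and 83.4 CPM with ENV and 1086, 1452, 949 and 688 CPM with buffer and fell (log2 change -2.43 ± 0.39, adjusted p = 0.00510). Of the fibrillar collagens, Col1a1 had 369.9, 397, 398 and 209.5 CPM with ENV and 643, 837, 642 and 287 CPM with buffer (log2 change -0.81 ± 0.33, adjusted p = 0.129, and adjusted p = 0.00532 with the block). Col3a1 had 63.7, 45.3, 99.8 and 18.7 CPM with ENV and 324, 494, 423 and 35.4 CPM with buffer (log2 change -2.49 ± 0.77, adjusted p = 0.0582, and adjusted p = 0.0107 with the block). Replicate 4 was the lowest of both groups for each of them. Fn1, fibronectin, had 3768, 3107, 2487 and 1252 CPM with ENV and 4884, 5334, 2515 and 2086 CPM with buffer and did not pass (log2 change -0.48 ± 0.41, adjusted p = 0.461).

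In contractile genes of mural cells and fibroblasts, replicate 4 was again the lowest of both groups. Tagln had 809.7, 1495, 1549.5 and 650.2 CPM with ENV and 3602, 4689, 4862 and 1172 CPM with buffer (log2 change -1.67 ± 0.47, adjusted p = 0.0430). Its call did not hold in 7 omissions (adjusted p = 0.112, 0.0511, 0.0668 and 0.0835 without ENV replicates 1, 2, 3 and 4, and 0.0879, 0.0966 and 0.114 without buffer replicates 1, 2 and 3, against 0.00171 to 0.532 over all alternatives). Acta2, smooth muscle actin, had 76.2, 325, 421 and 38.5 CPM with ENV and 2029.9, 3451, 3017 and 143 CPM with buffer (log2 change -3.33 ± 1.05, adjusted p = 0.0612, and adjusted p = 0.00562 with the block). Both were lower with ENV in all 4 replicate numbers, and buffer replicate 4 lay within the ENV range. Pdgfrb, the receptor that defines mural cells, had 87.9, 142, 168 and 219 CPM with ENV and 149, 231, 219 and 207 CPM with buffer (log2 change -0.39 ± 0.26, adjusted p = 0.351). Kcnj8, a channel of pericytes, had 2.72, 0.441, 3.48 and 1.51 CPM with ENV, with 240 counts over the 4 ENV libraries and 1 over the 4 buffer libraries, a ratio of 239 (95% counting interval 42.5 to 9485). Of 13 tested fibroblast and mural markers 3 fell (1 without ENV replicates 1 or 4 or buffer replicates 1, 2 or 3, 7 without both libraries numbered 4 or with DESeq2 and 8 without buffer replicate 4 or with the replicate block) and 1 rose (0 with a filter of at least 1 CPM in 4 libraries), with a median of -0.94. The summed level of these markers ran from 1818 to 3669 CPM with ENV and from 2908 to 12342 CPM with buffer, and its part in the matrix gene values was not tested.

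Matrix protease genes moved both ways, with 7 of 29 tested members higher, 7 lower and a median of -0.08. The count of rises was 4 without ENV replicates 1 or 3, and that of falls was 11 with the replicate block. Mmp9, a gelatinase, had 385, 34.9, 237 and 169 CPM with ENV and 0.994, 0.784, 1.34 and 1.06 CPM with buffer (log2 change 7.62 ± 0.78, adjusted p = 0.000892). Mmp3, stromelysin, had 25, 11.1, 18.7 and 11.8 CPM with ENV and 0.0343, 0.0747, 0 and 0.108 CPM with buffer, near the floor (log2 change 8.06 ± 0.55, adjusted p = 0.000348). Mmp13, a collagenase, had 7.56, 0.505, 2.39 and 1.06 CPM with ENV, with 333 counts over the 4 ENV libraries and 2 over the 4 buffer libraries, a ratio of 166 (95% counting interval 45.6 to 1376). The protease inhibitor Timp3 had 41.3, 105, 62.9 and 29.1 CPM with ENV and 355, 480.0, 343 and 204 CPM with buffer and fell (log2 change -2.54 ± 0.43, adjusted p = 0.00623), and Timp2 fell by 0.84 ± 0.14 (adjusted p = 0.00601). Their relative Timp1, counted above among the pan-reactive genes, was called higher.

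Growth factor genes were called lower in 6 of 28 tested members (21.4%) and higher in 3 (10.7%), with a median of -0.44. Over all tested genes the shares were 8.35% lower and 9.52% higher. The share called higher was near that of all tested genes here, in the Notch and Wnt list (8%) and in the TGF-beta and BMP list (7.14%). The shares called lower in those lists were 20% and 14.3%, and all of these counts of falls moved with the setting. The count of falls was 3 without ENV replicates 1 or 3 or buffer replicates 2 or 3, 10 with DESeq2 and 13 with the replicate block. Angptl4, an inhibitor of lipoprotein lipase, had 226, 147, 384 and 370.1 CPM with ENV and 14.6, 21.0, 21.8 and 23.1 CPM with buffer (log2 change 3.81 ± 0.34, adjusted p = 0.000564). The epidermal growth factor receptor ligand gene Ereg rose by 3.20 ± 0.64 (adjusted p = 0.0119). Igf1, insulin-like growth factor 1, had 2.65, 1.58, 2.45 and 1.88 CPM with ENV and 19.9, 3.21, 8.52 and 21.7 CPM with buffer and fell (log2 change -2.64 ± 0.56, adjusted p = 0.0154, and adjusted p = 0.0620 without both libraries numbered 4). Ntf3, neurotrophin 3, had 1.34, 1.61, 0.796 and 1.40 CPM with ENV and 3.56, 4.22, 4.15 and 3.63 CPM with buffer and fell (log2 change -1.59 ± 0.25, adjusted p = 0.00460). In the Notch and Wnt list 5 of 25 tested members fell (2 without buffer replicates 2 or 3 or both libraries numbered 4, 3 without ENV replicate 4 or buffer replicate 4, 9 with upper quartile factors and 11 with DESeq2 or the replicate block) and 2 rose (1 without buffer replicates 1 or 3 or both libraries numbered 4), with a median of -0.53. Of 28 tested TGF-beta and BMP genes 4 fell (2 without ENV replicates 1, 3 or 4 or buffer replicates 1 or 3 and 7 with the replicate block) and 2 rose (1 without ENV replicate 3, buffer replicate 3 or both libraries numbered 4 and 4 with the replicate block), with a median of -0.11. Wnt7a, a Wnt ligand, had 11.4, 19.1, 9.22 and 8.83 CPM with ENV and 65.4, 61.5, 66.1 and 64.9 CPM with buffer (log2 change -2.41 ± 0.24, adjusted p = 0.000847). Rspo3, an enhancer of Wnt signals, had 5.58, 2.46, 8.52 and 6.09 CPM with ENV and 0.548, 0.560, 0.307 and 0.216 CPM with buffer (log2 change 3.79 ± 0.48, adjusted p = 0.00189).

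Of 29 tested immediate early, AP-1 and MAPK feedback genes 10 rose (4 without buffer replicate 3 and 6 without buffer replicate 1) and 1 fell, with a median of 0.30. Cebpb, a transcription factor of inflammatory genes, had 182, 128, 247 and 239 CPM with ENV and 36.1, 36.7, 40.2 and 57.4 CPM with buffer (log2 change 2.22 ± 0.24, adjusted p = 0.00119). Klf4 rose by 2.35 ± 0.29 (adjusted p = 0.00187) and the AP-1 subunit gene Fosl2 by 1.55 ± 0.20 (adjusted p = 0.00200). Jun, another AP-1 subunit, had 145, 227, 152 and 136 CPM with ENV and 298, 366, 386 and 366 CPM with buffer and fell (log2 change -1.10 ± 0.17, adjusted p = 0.00488). Of 27 tested caspase, gasdermin and necroptosis genes 10 rose and none fell (median 0.35). Falls numbered 1 without buffer replicate 4 or with the replicate block. Casp4, the caspase that senses cytosolic lipopolysaccharide, had 86.2, 51.7, 95.9 and 92.9 CPM with ENV and 18.4, 17.9, 19.5 and 29.1 CPM with buffer (log2 change 1.94 ± 0.24, adjusted p = 0.00178). Mlkl, the effector of necroptosis, had 39.6, 28.6, 44.8 and 41.7 CPM with ENV and 10.4, 12.1, 12.4 and 11.6 CPM with buffer (log2 change 1.74 ± 0.15, adjusted p = 0.000478). The pore-forming gasdermin gene Gsdmd rose by 0.58 ± 0.08 (adjusted p = 0.00324), the kinase gene Ripk2 by 2.06 ± 0.35 (adjusted p = 0.00659) and the DNA sensor gene Aim2 by 3.42 ± 0.70 (adjusted p = 0.0134). None of these groups overlapped.

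Of the metabolic lists, those of glycolysis and cholesterol had called shares near those of all tested genes (9.52% higher and 8.35% lower). The amino acid response and serine synthesis list had larger shares, 29.4% higher and 17.6% lower. Of 22 tested glycolysis and lactate genes 2 rose (4 without ENV replicate 2 or with DESeq2 and 6 with the replicate block) and 2 fell (1 without ENV replicates 1 or 3 or buffer replicates 1 or 3, 4 with DESeq2 and 5 with the replicate block), with a median of 0.02. The pyruvate kinase gene Pkm had 1699, 1330.4, 1519 and 1482 CPM with ENV and 968, 983, 1056 and 899 CPM with buffer (log2 change 0.63 ± 0.12, adjusted p = 0.00866). Slc16a3, a lactate exporter, had 26.7, 4.98, 8.85 and 14.4 CPM with ENV and 2.47, 2.84, 2.73 and 2.71 CPM with buffer (log2 change 2.35 ± 0.47, adjusted p = 0.0122). Pdk1, an inhibitor of pyruvate dehydrogenase, had 18.7, 17.1, 19.1 and 20.8 CPM with ENV and 39.1, 33.7, 35.9 and 29.6 CPM with buffer and fell (log2 change -0.87 ± 0.11, adjusted p = 0.00199). Of 26 tested nuclear genes of the respiratory chain 3 fell (0 without buffer replicate 3, 1 without ENV replicates 1, 3 or 4, buffer replicates 1 or 2 or both libraries numbered 4, 5 with upper quartile factors and 6 with DESeq2) and none rose (median -0.14). Of 24 tested cholesterol genes 2 rose (0 without buffer replicate 3 or both libraries numbered 4 and 1 without ENV replicates 1, 3 or 4 or buffer replicate 1) and 3 fell (1 without ENV replicate 1, buffer replicates 1, 2 or 3 or both libraries numbered 4 and 5 without ENV replicate 2 or with the replicate block), with a median of 0.07. In the amino acid response and serine synthesis list 5 of 17 tested members rose (1 without buffer replicate 1, 2 without ENV replicate 1 or buffer replicate 2 and 3 without buffer replicate 3 or both libraries numbered 4 or with a filter of at least 1 CPM in 4 libraries) and 3 fell (1 without both libraries numbered 4 and 5 without ENV replicate 2 or with DESeq2 or the replicate block). Ddit3, a transcription factor of the integrated stress response, had 46.1, 39.5, 47.2 and 38.4 CPM with ENV and 13.3, 14.9, 17.9 and 11.5 CPM with buffer and rose (log2 change 1.57 ± 0.15, adjusted p = 0.000684). Psat1, in serine synthesis, had 72.1, 121, 63.1 and 49.2 CPM with ENV and 177, 191, 185 and 229.7 CPM with buffer and fell (log2 change -1.36 ± 0.26, adjusted p = 0.0102).

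Of 33 tested cell cycle genes 1 rose (3.03%) and none fell (median 0.11), beside 9.52% and 8.35% of all tested genes. The count of rises was 0 without ENV replicates 1 or 4 or buffer replicates 1, 2 or 3 or with RLE factors or upper quartile factors and 2 without buffer replicate 4 or both libraries numbered 4. That of falls was 1 with RLE factors, upper quartile factors, DESeq2, a filter of at least 1 CPM in 4 libraries or the replicate block. Mki67, the proliferation antigen, had 565, 405, 254 and 36.8 CPM with ENV and 368, 319, 146 and 145 CPM with buffer (log2 change 0.37 ± 0.69, adjusted p = 0.762). Its spread within each group exceeded the difference between them, and replicate 4 was the lowest of both groups. Of 22 tested chaperone and heat shock genes none rose (1 without buffer replicate 4 or both libraries numbered 4 or with DESeq2 or the replicate block) and 1 fell. That count of falls was 0 without ENV replicates 1 or 4 or buffer replicates 1, 2 or 3 and 2 with the replicate block. Of 15 tested hypoxia-inducible genes 5 rose and 1 fell (2 without ENV replicate 3 or with upper quartile factors or the replicate block and 3 without ENV replicate 4 or both libraries numbered 4). The median of that list was 0.097, and its largest rise was that of Nos2 (log2 change 10.90), described above with the nitric oxide genes and not above the floor with buffer. The called cell cycle member was Cdkn1a, the cell cycle inhibitor p21, with 168, 113, 95.9 and 143 CPM with ENV and 71.9, 64.8, 65.4 and 105 CPM with buffer (log2 change 0.76 ± 0.22, adjusted p = 0.0458). Its call did not hold in 5 omissions (adjusted p = 0.110 and 0.0865 without ENV replicates 1 and 4, and 0.109, 0.110 and 0.127 without buffer replicates 1, 2 and 3, against 0.00956 to 1.00 over all alternatives).

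Several transcripts that define resting microglia fell. Of 18 tested microglia and macrophage markers 5 fell (1 without ENV replicates 1 or 3 or buffer replicates 1 or 3, 2 without buffer replicate 4 or both libraries numbered 4, 3 with a filter of at least 1 CPM in 4 libraries and 11 with the replicate block) and none rose (1 with the replicate block), with a median of -1.24. Gpr34, a lipid receptor, had 0.459, 0.284, 0.464 and 0.856 CPM with ENV and 15.9, 1.94, 9.33 and 15.4 CPM with buffer (log2 change -4.36 ± 0.68, adjusted p = 0.00466). Cx3cr1, the fractalkine receptor, had 4.98, 1.42, 7.10 and 12.2 CPM with ENV and 83.0, 8.59, 47.6 and 80.6 CPM with buffer (log2 change -3.10 ± 0.79, adjusted p = 0.0308). The purinergic receptor genes P2ry12 and P2ry13 fell by 2.96 ± 0.75 and 3.79 ± 0.85 (adjusted p = 0.0295 and 0.0192), and Trem2, a lipid-sensing receptor, fell by 3.01 ± 0.87 (adjusted p = 0.0472). All 5 were lower with ENV in all 4 replicate numbers, and replicate 2 was the lowest of both groups for each. Aif1, a calcium-binding protein of all microglia, had 37.5, 8.45, 33.2 and 60.6 CPM with ENV and 48.3, 8.07, 29.2 and 44.9 CPM with buffer (log2 change 0.10 ± 0.64, adjusted p = 0.940), and the integrin gene Itgam had 72.1, 5.30, 31.6 and 51.7 CPM with ENV and 44.9, 6.54, 27.5 and 42.8 CPM with buffer (log2 change 0.40 ± 0.76, adjusted p = 0.766), with overlapping groups for both.

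Among these microglial genes, the call of Gpr34 held in every omission of a single library. The call of Cx3cr1 did not hold in 5 omissions (adjusted p = 0.0861 and 0.0769 without ENV replicates 1 and 3, and 0.0736, 0.0669 and 0.0589 without buffer replicates 1, 3 and 4, against 8.0e-05 to 0.184 over all alternatives). For P2ry12 the same was found in 5 omissions (adjusted p = 0.0827 and 0.0597 without ENV replicates 1 and 3, and 0.0733, 0.0655 and 0.0570 without buffer replicates 1, 3 and 4, against 0.000217 to 0.185 over all alternatives). The call of Trem2 was lost in 7 (adjusted p = 0.0548, 0.0515, 0.117 and 0.0801 without ENV replicates 1, 2, 3 and 4, and 0.107, 0.104 and 0.0833 without buffer replicates 1, 3 and 4, against 0.000645 to 0.284 over all alternatives). The call of P2ry13 was lost in 4 (adjusted p = 0.0598 and 0.0569 without ENV replicates 1 and 3, and 0.0516 and 0.0524 without buffer replicates 1 and 3, against 2.2e-05 to 0.0997 over all alternatives). Neuronal markers summed to 336, 391, 476 and 279 CPM with ENV and 669, 590, 821 and 815 CPM with buffer (exact permutation test, 2-sided, p = 0.0286, the smallest that 4 libraries against 4 allow, and adjusted p = 0.129 over 9 marker lists). Most of this sum was Stmn2 in every library. Of 8 tested neuronal markers 2 fell (1 without both libraries numbered 4) and 1 rose, with a median of -0.37. Stmn2, a tubulin-binding protein of growing neurons, had 245, 315, 388 and 231 CPM with ENV and 492, 469.7, 690.2 and 687 CPM with buffer (log2 change -0.99 ± 0.21, adjusted p = 0.0147, and adjusted p = 0.0550 without both libraries numbered 4). Map2, of dendrites, fell by 1.40 ± 0.25 (adjusted p = 0.00759). Gad1, which makes GABA, had 21.3, 15.7, 24.9 and 14.2 CPM with ENV and 8.43, 6.42, 5.76 and 5.19 CPM with buffer and rose (log2 change 1.56 ± 0.23, adjusted p = 0.00356).

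Genes not yet described remained among the largest changes in either direction. Among the 15 largest rises, Pla2g2a, a secreted phospholipase, had 5.05, 1.92, 15.0 and 37.1 CPM with ENV, with 1741 counts over the 4 ENV libraries and 3 over the 4 buffer libraries, a ratio of 578 (95% counting interval 198 to 2807). The carboxylesterase gene Ces1d had 10.4, 3.56, 10.1 and 51.8 CPM with ENV and 0, 0, 0 and 0.216 CPM with buffer (log2 change 8.10 ± 1.28, adjusted p = 0.00494). Plet1 had 21.8, 1.70, 14.8 and 15.3 CPM with ENV and 0.0685, 0.0747, 0 and 0.0812 CPM with buffer (log2 change 7.74 ± 0.96, adjusted p = 0.00189). ENSRNOG00000062648, which the files do not pair with a name, had 132, 11.5, 92.7 and 220.3 CPM with ENV and 0.617, 0.149, 0.115 and 0.622 CPM with buffer (log2 change 8.16 ± 1.04, adjusted p = 0.00201). ENV replicate 2 was the lowest ENV library in each of them, and the groups did not overlap.

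Among the 15 largest falls, Sv2c, a synaptic vesicle protein gene, had 0.671, 0.725, 0.630 and 0.137 CPM with ENV and 14.8, 17.6, 13.9 and 3.65 CPM with buffer (log2 change -4.51 ± 0.62, adjusted p = 0.00268). Nkain4, which encodes a partner of the sodium pump, had 1.66, 3.97, 2.95 and 1.27 CPM with ENV and 51.7, 43.3, 55.0 and 26.9 CPM with buffer (log2 change -4.16 ± 0.41, adjusted p = 0.000767), and the keratin gene Krt16 had 0.848, 3.50, 3.58 and 0.582 CPM with ENV and 43.2, 25.9, 45.7 and 21.5 CPM with buffer (log2 change -3.99 ± 0.62, adjusted p = 0.00442). Pcp4l1 had 5.09, 12.5, 4.78 and 3.25 CPM with ENV and 136, 116, 98.7 and 23.1 CPM with buffer (log2 change -3.87 ± 0.63, adjusted p = 0.00552). Buffer replicate 4 was the lowest buffer library in all 4. Syt7, a calcium sensor of exocytosis, had 3.00, 5.11, 2.06 and 2.36 CPM with ENV and 28.5, 30.8, 29.6 and 26.5 CPM with buffer (log2 change -3.20 ± 0.28, adjusted p = 0.000553), with buffer libraries close together. LRRTM1, a synaptic adhesion protein gene, had 1.02, 1.89, 0.962 and 0.479 CPM with ENV and 6.78, 7.43, 20.2 and 17.3 CPM with buffer (log2 change -3.56 ± 0.53, adjusted p = 0.00387). Sostdc1, an antagonist of BMP and Wnt signals, had 2.51, 14.0, 22.1 and 14.1 CPM with ENV and 53.7, 80.7, 229 and 130.2 CPM with buffer (log2 change -3.23 ± 0.67, adjusted p = 0.0140, and adjusted p = 0.0501 without both libraries numbered 4). LOC100125362 had 3.46, 22.3, 4.51 and 0.650 CPM with ENV and 131, 143, 139.9 and 64.1 CPM with buffer (log2 change -3.94 ± 0.90, adjusted p = 0.0201). Its call did not hold in 3 omissions (adjusted p = 0.0591 and 0.0612 without ENV replicates 1 and 3, and 0.0533 without buffer replicate 3, against 0.000306 to 0.0987 over all alternatives). Wscd2, Lypd1, Slc24a2 and Klhdc8a fell by 3.41 ± 0.65, 3.32 ± 0.64, 3.30 ± 0.41 and 3.14 ± 0.40 (adjusted p = 0.0103, 0.0106, 0.00189 and 0.00214).

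Among genes called lower, the largest losses of mean CPM apart from those of Vim, Gfap, Tagln and Sparc were those of Tmsb4x, Pea15, Cnn3 and Ckb. Tmsb4x, which binds actin monomers, had 2827, 3887, 3638 and 2727 CPM with ENV and 5564, 5994, 5548 and 5201 CPM with buffer (log2 change -0.77 ± 0.16, adjusted p = 0.0139). Pea15, an astrocyte phosphoprotein gene, had 1145, 1754, 1336 and 865 CPM with ENV and 3730.1, 4135, 3609 and 2303 CPM with buffer (log2 change -1.43 ± 0.26, adjusted p = 0.00815). Cnn3, an actin-binding calponin, had 765, 994, 1079 and 1001 CPM with ENV and 1834, 2129.8, 2157 and 1568 CPM with buffer (log2 change -1.002 ± 0.16, adjusted p = 0.00455). Ckb, brain creatine kinase, had 585, 624, 842 and 1136 CPM with ENV and 1538, 1497, 1824 and 1774 CPM with buffer (log2 change -1.06 ± 0.22, adjusted p = 0.0133). The groups did not overlap in any of them.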

How the data were processed

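Total RNA was converted to messenger RNA libraries, sequenced, aligned with HISAT2 and assembled or counted with StringTie 1.3.3b on the mRatBN7.2 build, per the submitters' processing notes. The deposited files hold whole-number read counts per gene symbol, 1 file per library, with no normalization recorded. The sources used here do not say whether counting used strand. The 4 ENV and 4 buffer astrocyte libraries (20268 genes each) were joined by symbol and no gene was dropped before filtering.

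Counts were scaled by TMM in edgeR 4.0.16 (R 4.3.3, with limma 3.58.1), filtered with filterByExpr, which left 14941 genes, and tested by the quasi-likelihood F test with a robust fit of ENV against buffer. Genes were called at a Benjamini-Hochberg adjusted p under 0.05 over all genes tested. The standard error of a log2 change was its absolute value divided by the square root of the F statistic, an approximation. CPM values are counts per 1000000 of the TMM-scaled total, so they compare a gene between libraries and are not levels per gene length. The procedure was tested on simulated data. For single values such as marker sums, exact permutation tests over the 8 libraries were used (70 arrangements, smallest 2-sided p 0.0286). Fold bounds against a count of 0 use a floor of 3 counts over the buffer group, and ratios with 1 to 3 buffer counts have a 95% counting interval. Intervals and floors cover counting error only.

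Libraries of the same replicate number correlated in their deviations from the group means (0.51, 0.64, 0.26 and 0.57, against at most 0.13 for other pairs). The replicate number was therefore used as a block in an alternative fit. The main fit had no block and does not use this pairing. Calls, log2 changes, standard errors and adjusted p-values of genes are from the main fit unless another setting is named.

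The comparison, its gene lists and its tests were chosen with earlier results of these data known. Genes are named where they were among the 15 largest rises or falls without overlap and with at least 10 CPM on average in the higher group, among the 8 largest gains or losses in mean CPM of called genes, among the largest changes or most counted members of a list, or on a fixed panel, of which some members are not reported here. Of the symbols, 16854 matched a current RefSeq symbol, 178 a synonym and 3236 neither. Promoter sequences are from RefSeq (GRCr8), and no GRCr8 coordinate was set against the mRatBN7.2 counts. Alternatives were RLE and upper quartile factors, DESeq2 1.42.0, no filter, at least 1 CPM in 4 libraries, each library left out, the replicate block, a test against a 2-fold change and, added after seeing the data, both libraries numbered 4 left out.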

Additional observations from a re-analysis of the deposited data

Results flagged for a closer look

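In groups of 4 libraries, 1 library was read as standing apart when its gap to the nearest of the others passed Dixon's 95% critical value, which chance passes in about 1 in 20 groups. Of 426 groups of 4 values checked, 43 passed, and 29 of the 43 were buffer replicate 4. A group with counts in 1 library alone always passes, even at a single count, and such groups are among the 43. Genes that move together in a library are not independent checks either. The rate of 1 in 20 is therefore not a measure of how many flags chance would give here.

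Buffer replicate 4 was the highest buffer library for chemokine genes: Ccl5 (1.65 CPM), Ccl7 (133 CPM), Ccl20 (25.2 CPM), Cxcl1 (167 CPM), Cxcl2 (10.1 CPM), Cxcl3 (10.4 CPM), Cxcl6 (42.7 CPM), Cxcl9 (1.79 CPM), Cxcl10 (39.8 CPM) and Cx3cl1 (58.5 CPM). The same held for the NF-kB feedback genes Birc3 (21.9 CPM) and Tnfaip3 (43.4 CPM) and for Gbp2 (590.4 CPM), Cd74 (3.81 CPM), C3 (2126 CPM), Lcn2 (49.9 CPM), Vcam1 (194 CPM), Sod2 (426 CPM), Steap4 (5.71 CPM), Casp4 (29.1 CPM) and Glul (4108 CPM). It was the only buffer library with counts of Csf3 (0.0812 CPM), RT1-Db1 (0.0812 CPM), Pla2g2a (0.0812 CPM), RT1-Ba (0.0541 CPM), Cd69 (0.0271 CPM), Kcnj8 (0.0271 CPM) and Ces1d (0.216 CPM), each at or close to the floor. For LOC100125362 it was the lowest, at 64.1 CPM.

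Among ENV libraries, replicate 2 was the lowest for Ccl3 (24.3 CPM) and Lta (0.914 CPM) and the highest for Jun (227 CPM). ENV replicate 1 was the highest for Ptgs2 (90.4 CPM). ENV replicate 4 was the highest for RT1-Db1 (16.1 CPM) and Ces1d (51.8 CPM) and the lowest for Bcan (64.5 CPM), Col1a1 (209.5 CPM) and Sv2c (0.137 CPM). Among the other buffer libraries, replicate 1 was the highest for Map2 (145 CPM), replicate 2 was the lowest for Il16 (0.934 CPM) and the only one with counts of Mmp13 (0.0747 CPM), and replicate 3 was the only one with a count of Orm1 (0.0384 CPM) and the only one without a count of Plet1 (0 CPM).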

How the results depend on the processing

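Of 202 genes described by their own test, 201 kept their direction and their side of the threshold under RLE factors, 200 under upper quartile factors, 191 under DESeq2, 198 without a low-count filter and 188 with the replicate block, which ended no call and made 14. Single omissions kept 189 to 196 of them and ended 3 to 13 calls. Leaving out both libraries numbered 4, chosen after seeing the data, kept 182, ended 12 calls (Il16, Clu, Cfp, Aqp4, Gja1, Sparc, Igf1, Cx3cr1, P2ry12, Trem2, Stmn2 and Sostdc1), made 7 and reversed Aif1. The replicate block called 4348 genes (2229 lower) and DESeq2 called 1950 lower. A test against a 2-fold change called 365 (259 higher and 106 lower), with 70 of the 202 no longer called. Single omissions left 1487 to 2869 calls, 773 to 1540 of them higher and 714 to 1329 lower, and with 7 libraries fewer samples enter each test. The directions that reversed were of genes not called: Glul (-0.77 to 0.10 over single omissions), Mki67 (-0.073 to 0.74), Aif1 (-0.31 to 0.42, and -0.11 with both libraries numbered 4 left out) and Itgam (-0.044 to 0.77). Ratios of ENV over buffer that crossed 1 were those of oligodendrocyte markers (0.900 to 1.07), granulocyte and monocyte markers (0.868 to 1.65, and 0.964 with both libraries numbered 4 left out) and the share of mitochondrially encoded genes (0.969 to 1.12). The cause was not tested. The list medians of glycolysis and of chaperone genes, both near 0, changed sign under RLE, upper quartile or DESeq2 scaling. Depth limits genes with 0 to 3 buffer counts, whose change is given as a bound or with a counting interval. Genes with a few more buffer counts, among them Nos2, Wfdc21, Mmp3, Il12b and Plet1, were also at or near the floor with buffer. Their changes have neither a bound nor a counting interval.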
